A study of Arabidopsis thaliana with 4 samples.

Results

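Plant cystatins are small proteins that bind papain-like cysteine proteases and block their active site. They do so through a conserved loop with the order glutamine, a variable residue, valine, a variable residue and glycine. Some cystatins carry an extended carboxy-terminal domain that also inhibits legumains, the vacuolar processing enzymes. In Arabidopsis, cystatins and their target proteases are known from stress responses, senescence, seeds and the programmed death of tissues such as the tapetum, the layer that feeds developing pollen.

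The 9 genes described here were taken by their locus identifiers. They comprise 7 cystatins (CYSB, CYS1, CYSA, CYS2, CYS4, AT5G47550 and AT5G05110) and a pair of neighbouring genes on chromosome 5 that were proposed as cystatin-like, AT5G17080 and AT5G17090. The pair was selected on its measured difference between the genotypes in these same samples, and the cystatins were set beside it with results of the same contrast known, so every genotype difference of a member below is a description without a test. The mRNA was sequenced from inflorescences of Arabidopsis thaliana, called flowers here, of plants 5 weeks old. The 2 Col-0 libraries came from wild-type plants. The 2 ndx1-4 libraries came from 1 mutant line in the same Col-0 background with a T-DNA inserted into NDX, which encodes a homeobox transcription factor. RNA of inflorescences from different plants was pooled for a library, and no treatment was given to either genotype. Of the 9 members, 6 had counts in all 4 libraries, among 13311 genes with a row in any of the 3 gene tables. CYS4, AT5G47550 and AT5G05110 had no row in these tables and their levels were not analysed here.

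The tables listed genes past a threshold of the study. The genotype table compares ndx1-4 with Col-0 flowers, and the tissue tables compare flowers with seedlings within each genotype. Genes in both tissue tables or in the genotype table, 9143 in all, had counts in all 4 libraries, between 9145282 and 11979153 per library. The 8163 with a mean of at least 10 counts were fitted together with edgeR (quasi-likelihood test, Benjamini-Hochberg adjustment). They are called all genes below, although they are a selected part of the transcriptome. Counts are given below either as deposited or scaled to the depth of Col-0 replicate 1. For the mutated gene NDX (AT4G03090), the Col-0 libraries held 430 and 525 counts and the ndx1-4 libraries held 73 and 108. On the log2 scale the fitted difference of NDX was -2.55 ± 0.17 (SE, n = 2 libraries per genotype). NDX had no row in the ndx1-4 tissue table and entered the fit only through the genotype table. Genes of that table were selected on this same contrast, so the difference of NDX is a description without a test. The floral organ genes AG, AP1, AP3, PI and SEP3 had 667 to 2654 counts in every library, and the seed storage genes looked up as a check had at most 5. A higher count in these bulk samples can come from more cells of a type or from more RNA per cell, which cannot be told apart.

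The coding sequences are shown first, because they separate the 7 cystatins from the neighbouring pair. The search used the RefSeq annotation of TAIR10.1, the reading frame and the coding strand only. The letters CANGTNGTNGCNGGN spell the inhibitory loop of glutamine, valine, valine, alanine and glycine, although the first codon could also be histidine. They were found in 16 of 27562 genes with a coding sequence (0.0581%), and 5 of these were members. The looser letters CANNNNGTNNNNGGN, which include the first motif and allow any residue at the positions between, were in 2178 genes (7.90%) and in 7 members. Each stretch below runs 5′ to 3′ on the coding strand with 15 bases on either side of the motif, and capitals mark the motif.
CYSB: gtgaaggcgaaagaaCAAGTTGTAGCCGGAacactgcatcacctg
CYS1: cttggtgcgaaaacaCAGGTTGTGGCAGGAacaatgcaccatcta
CYSA: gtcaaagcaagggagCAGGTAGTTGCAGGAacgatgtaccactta
CYS2: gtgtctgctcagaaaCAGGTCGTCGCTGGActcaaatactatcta
AT5G05110: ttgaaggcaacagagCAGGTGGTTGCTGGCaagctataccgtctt
CYS4: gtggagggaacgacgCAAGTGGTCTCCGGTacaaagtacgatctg
AT5G47550: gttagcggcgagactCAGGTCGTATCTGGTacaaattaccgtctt

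The first 5 sequences held the strict motif, and CYS4 and AT5G47550 held only the looser one, with a serine codon before the glycine. The coding sequences fell into a short and a long form. CYS1 (306 bases), CYS4 (354), AT5G47550 (369), CYSA (378) and CYS2 (444) were short, and AT5G05110 (699) and CYSB (705) were long, the form known to have the extended carboxy terminus. The motif began at base 244 of the coding sequence in CYSB and at base 163 in CYS1.

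AT5G17080 and AT5G17090 held neither cystatin motif. RefSeq annotates AT5G17080 as a cysteine proteinase superfamily protein with a papain-type domain, which goes against the proposed name, since this is the family of enzymes that cystatins inhibit. A strict papain motif, GGNNNNTGNTGGGCNTTN, was found in 24 genes (0.0871%), in 22 of the 32 papain-like proteases listed below and in 0 members. Its core around the active-site cysteine, TGNTGGGCN, was searched after the sequence had been seen. It was found in 275 genes (0.998%), in 25 of the 32 proteases and in AT5G17080 at base 286 of 897 coding bases. The stretch is shown with the core in capitals.
AT5G17080: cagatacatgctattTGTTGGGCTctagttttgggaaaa

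AT5G17090 is annotated as a member of the cystatin/monellin superfamily with a plant cystatin-related domain, and its coding sequence had 693 bases. No match in these windows says only that the letters were not found there. AT5G17080 is called a papain-like gene below, AT5G17090 is called cystatin-related, and the name cystatin is kept for the other 7.

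The pair was selected on its difference between the genotypes, and it had the largest differences among the members with values. In TAIR10, AT5G17080 lies on chromosome 5 from 5619594 to 5620949 on the plus strand, and AT5G17090 lies from 5621249 to 5622542 on the minus strand. The genes face each other with 299 bases between them. No stretch of 31 bases was shared between the annotated transcripts of the 2 genes, or between either of them and any other annotated transcript, so reads of these 2 genes could be told apart over such a stretch.

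For AT5G17090 198 and 201 counts were found in Col-0, against 1505 and 2000 in ndx1-4. The genotypes did not overlap, and both ndx1-4 libraries were several times above both Col-0 libraries. After scaling, the fold difference was 7.88, or 2.98 ± 0.13 on the log2 scale (SE, n = 2 libraries per genotype), at rank 39 from the top of 8163 genes. In the genotype table its level was 14.3 ± 1.76 FPKM (fragments per kilobase of transcript, scaled for depth, SD, n = 2) in Col-0 and 112 ± 10.6 in ndx1-4.

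AT5G17080 was near zero in Col-0, with 2 and 5 counts, and had 93 and 138 counts in ndx1-4. All of the Col-0 signal therefore rested on 7 counts, against 231 in ndx1-4. The ratio of scaled counts was 29.9, with an exact 95% interval of 14.3 to 75.3 that covers counting error only. The fitted log2 fold change was 4.85 ± 0.41, at rank 12 of 8163. AT5G17080 had no row in the Col-0 tissue table and entered the fit only through the genotype table. A clear difference was fixed by that selection, so nothing is read from its rank. In the genotype table the level was 0.314 ± 0.157 FPKM in Col-0 and 8.50 and 10.6 FPKM in the ndx1-4 libraries.

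Both genes of the pair were higher in ndx1-4, and AT5G17090 had the larger count in each library, as it had the higher FPKM in both genotypes of the genotype table, given above. The count of AT5G17090 was 99.0 and 40.2 times that of AT5G17080 in the Col-0 libraries and 16.2 and 14.5 times in the ndx1-4 libraries. The Col-0 ratios rest on the same 2 and 5 counts. None of the genes annotated within 5 positions of the pair on either side had a row in any table, so the levels beside the pair were not analysed here.

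**Figure D1:**
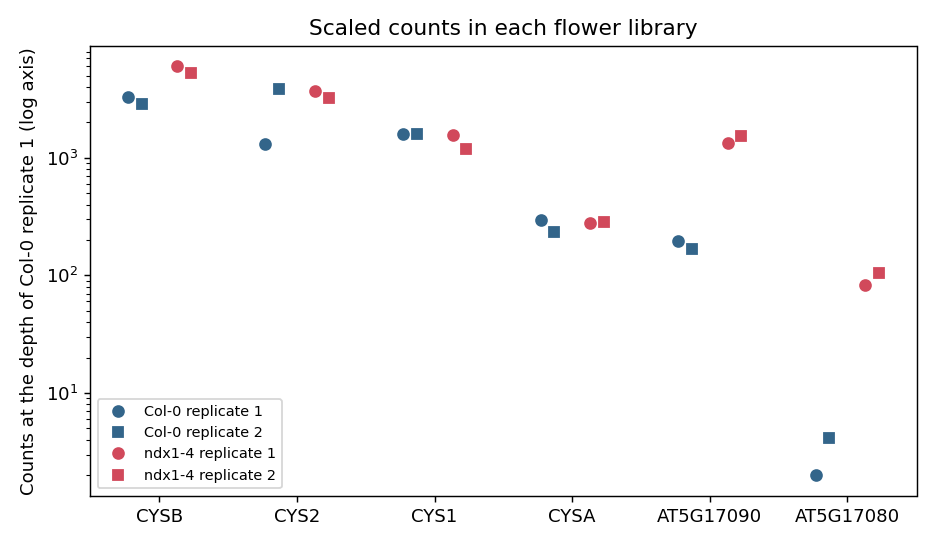
Counts of the 6 members with values, scaled to the depth of Col-0 replicate 1, in each flower library on a log axis. Blue points are Col-0 and red points are ndx1-4, with circles for replicate 1 and squares for replicate 2. AT5G17090 and AT5G17080 show the widest separation of the genotypes, on which they were selected, and CYS2 the widest separation of the Col-0 replicates.

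Among the cystatins, CYSB had the clearest difference. CYSB (AT3G12490, chromosome 3, 3960401 to 3961920, minus strand) encodes a long cystatin, of the kind that can also inhibit legumains. It had 3255 and 3414 counts in Col-0 against 6692 and 6926 in ndx1-4. Both ndx1-4 libraries lay above both Col-0 libraries, and the replicates of each genotype were close. The fold difference after scaling was 1.85, or 0.89 ± 0.11 on the log2 scale, at rank 369 of 8163. The level in the genotype table was 385 ± 27.5 FPKM in Col-0 and 738 ± 41.2 in ndx1-4.

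CYS1 (AT5G12140, chromosome 5, 3922591 to 3924058, minus strand) encodes one of the short cystatins. It had 1600 and 1917 counts in Col-0 against 1738 and 1570 in ndx1-4. The scaled counts were 1600 and 1594 against 1555 and 1199, so the genotypes did not overlap, although the first ndx1-4 library came close to Col-0. The log2 fold change was -0.21 ± 0.14, which was smaller than the log2 gap of 0.37 between the ndx1-4 replicates, the second being the lower.

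CYSA (AT2G40880, chromosome 2, 17057388 to 17058122, plus strand) encodes another short cystatin. Its counts were 293 and 283 in Col-0 against 312 and 371 in ndx1-4. The scaled counts overlapped, with 293 and 235 in Col-0 around 279 and 283 in ndx1-4. The log2 fold change was 0.09 ± 0.15.

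CYS2 (AT2G31980, chromosome 2, 13609093 to 13609955, minus strand) encodes a further short cystatin. It showed 1299 and 4628 counts in Col-0 against 4169 and 4203 in ndx1-4. Col-0 replicate 1 was the single low library, and the other 3 were alike. The genotypes overlapped, and the log2 fold change of 0.43 ± 0.49 was smaller than its error. Without Col-0 replicate 1 it was -0.15, and without Col-0 replicate 2 it was 1.42, so the direction rested on which Col-0 library was used.

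Over the 6 members with values, the median log2 fold change was 0.66, against 0.02 over all 8163 genes. Scaled counts did not overlap between the genotypes for AT5G17080, AT5G17090 and CYSB, which were higher in ndx1-4, and for CYS1, which was lower. Over all genes 54.5% did not overlap, of which the higher genes made up 28.8% and the lower genes 25.7% of all. At an edgeR adjusted p below 0.01, 1 member was called, AT5G17090, beside 0.270% of all genes (0.221% higher and 0.0490% lower). With any 1 of the 4 libraries left out, edgeR called 0 members and 0 genes at that threshold. At an adjusted p below 0.05, 3 members were called (AT5G17080, AT5G17090 and CYSB), beside 2.81% of all genes (1.91% higher and 0.894% lower). Nothing is read from these counts, since the members were proposed from the same contrast.

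The gap between the Col-0 replicates of CYS2 was unusual for these libraries. Replicate 2 was 2.96-fold above replicate 1 after scaling, or 1.57 on the log2 scale. Of 7216 genes averaging 50 counts or more, 60 (0.832%) had a gap at least as wide in either direction, and the SD of the log2 gap over these genes was 0.38 in Col-0. The ndx1-4 replicates of CYS2 differed by only 0.22 on that scale, replicate 2 being the lower. Among the other cystatins the log2 gap of Col-0 replicate 2 from replicate 1 ran from -0.32 for CYSA to -0.01 for CYS1.

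**Figure D2:**
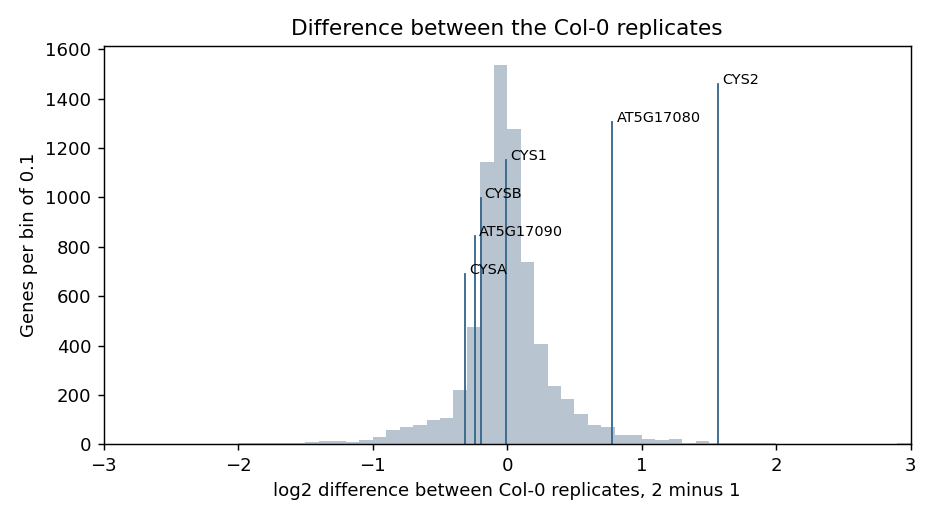
Difference between the Col-0 replicates, as log2 of the scaled count of replicate 2 minus that of replicate 1. Grey bars count genes in bins 0.1 wide, and blue lines mark the members at heights chosen only to separate their names. CYS2 lies at 1.57, to the right of nearly all genes, and AT5G17080 lies at 0.78, on 2 and 5 counts. CYSA, AT5G17090, CYSB and CYS1 lie between -0.32 and -0.01.

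Genes with the pattern of CYS2 over the 4 libraries were looked up after its values had been seen. Likeness was the Euclidean distance between centred log2 values of scaled counts plus 1, over 7210 genes. The closest was CYP705A24 (AT1G28430), a cytochrome P450, with 266 and 862 counts in Col-0 against 758 and 738 in ndx1-4. It was followed by AT3G21320, annotated as an EARLY FLOWERING protein, with 47 and 186 counts in Col-0 against 141 and 142 in ndx1-4. The next were AT5G13380, of the auxin-responsive GH3 family, AT1G30350, a pectin lyase-like gene, and AT3G63095. In all 5, Col-0 replicate 1 was the lowest library, which follows from their choice by likeness to CYS2 over these libraries.

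Markers of flower tissues were compared between the same libraries. The summed scaled counts of 8 tapetum genes with values in all libraries, of 10 listed, were 20794 and 32952 in Col-0 against 31752 and 28455 in ndx1-4. Col-0 replicate 2 was 1.58 times replicate 1 in this sum, which rested on GRP17, an oleosin of the pollen coat that made up 80.5% of it in Col-0 replicate 1, and on A7. Scaled counts in the Col-0 replicates were 16734 and 28146 for GRP17 and 1160 and 2017 for A7. The other 6 tapetum genes did not share the gap and summed to 2900 and 2789 in the Col-0 replicates, with replicate 2 above replicate 1 for 4 of them and below it for 2. The summed scaled counts of 10 pollen genes were 22703 and 21253 in Col-0 against 34075 and 24296 in ndx1-4. VGD1 made up the largest part, with 9756 in Col-0 replicate 1. VEX1 (log2 fold change -0.68) and STP9 (-0.26) were lower in ndx1-4, while the other listed pollen genes had positive log2 fold changes. The sums of the 5 floral organ genes ranged from 6231 to 6824. None of the marker genes with values was at 0 among the tapetum, pollen and floral organ lists. The part of these markers in the levels of CYS2 or of any other member was not tested.

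Levels per length could be compared between genes within each tissue table. In Col-0, CYSB had the highest level, with 374 and 336 FPKM, a mean of 355 ± 26.4 (SD, n = 2) that was above 97.0% of the 11173 genes listed. CYS2 followed with 141 and 416 FPKM, and its libraries overlapped with those of CYSB, so these neighbours in the order did not differ beyond their spread. CYS1 was at 132.8 FPKM, with an SD of 0.0674, just below the lower CYS2 library. CYSA was at 45.4 ± 6.70 FPKM. AT5G17090 was the lowest of the members listed in Col-0, at 13.2 ± 1.66 FPKM, above 48.1% of listed genes.

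In ndx1-4 the order at the top was the same. CYSB had 710 and 647 FPKM (mean 678 ± 44.3), above 98.7% of 11050 listed genes. CYS2 had 405 and 343 FPKM, without overlap with its neighbours. CYS1, at 114 ± 22.8 FPKM, and AT5G17090, at 103 ± 8.72 FPKM, overlapped. CYSA was at 48.0 ± 0.648 FPKM. AT5G17080 was listed in this table only of the tissue tables, and was the lowest at 8.78 ± 1.29 FPKM.

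AT5G17090 was therefore below CYSA in Col-0 and above it in ndx1-4, in both libraries of each genotype. It was above 90.3% of the genes of the ndx1-4 table. When levels were taken instead as counts per kilobase of annotated transcript, AT5G17090 came at place 3 and CYS1 at place 4 in ndx1-4, and every other member kept its place.

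**Figure D3:**
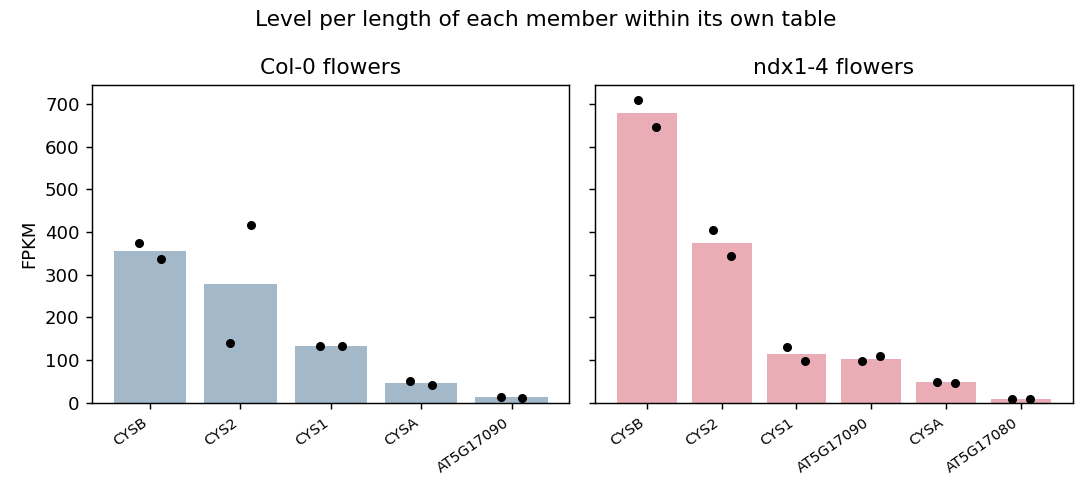
FPKM of each member in the Col-0 tissue table (left) and the ndx1-4 tissue table (right), where bars are means of 2 libraries and dots are the libraries. CYSB is the highest in both genotypes, and AT5G17090 is the lowest listed member in Col-0 but level with CYS1 in ndx1-4. The tables were scaled separately.

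The enzymes that cystatins can inhibit were listed as 32 papain-like cysteine proteases and 4 legumains. Of these 36 genes 25 had a row in a table and 16 entered the fit. None of the 16 was called at an edgeR adjusted p below 0.01 or below 0.05. At an unadjusted edgeR p below 0.05, 4 of the 16 passed (25.0%), near the 21.0% of all genes. Of these, 4 were lower in ndx1-4 and 0 were higher, against 746 lower and 971 higher among all genes. DESeq2 called 1 of the 16 at an adjusted p below 0.01 (6.25%, against 4.91% of all genes). It was AT4G11320, a papain family protease that is named after its values were seen, with 1667 and 1864 counts in Col-0 against 1342 and 1332 in ndx1-4. The median log2 fold change was -0.17, with a range from -1.36 to 0.53. Scaled counts did not overlap and were higher for 2 genes (12.5%, against 28.8% of all genes) and lower for 6 (37.5%, against 25.7%).

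The 3 proteases with the largest log2 differences had lower values in ndx1-4. AT4G23520, a cysteine proteinase superfamily gene, had 59 and 55 counts in Col-0 against 16 and 34 in ndx1-4 (log2 fold change -1.36 ± 0.38). CEP2 (AT3G48340), one of the proteases with an endoplasmic reticulum retention signal, had 107 and 284 counts in Col-0 against 61 and 109 in ndx1-4 (-1.32 ± 0.45), so the genotypes overlapped only in raw counts. XCP2, a protease of xylem vessels, had 322 and 431 counts in Col-0 against 285 and 256 in ndx1-4 (-0.60 ± 0.17). None of these differences passed the adjusted test.

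Among proteases listed in the Col-0 tissue table, those with the highest level had log2 differences smaller than their errors where both genotypes were measured. RD21A, an abundant vacuolar protease induced by drought, had 265 ± 17.7 FPKM in Col-0 and a log2 fold change of 0.05 ± 0.10. ALP, an aleurain-like protease (AT5G60360), had 230 ± 11.5 FPKM in Col-0 and a log2 fold change of 0.02 ± 0.09. AT1G02305, a cathepsin B-like protease, had 135 ± 2.17 FPKM in Col-0 and was not listed for ndx1-4. RD19 and AT4G16190 were listed for ndx1-4 only, at 656 and 667 FPKM and at 337 and 287 FPKM, and were not part of this order. Among legumains, BETA-VPE, known from seeds, had a log2 fold change of 0.53 ± 0.35 on 16 and 31 counts in Col-0 against 33 and 41 in ndx1-4. ALPHA-VPE had a log2 fold change of -0.23 ± 0.43.

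**Figure D4:**
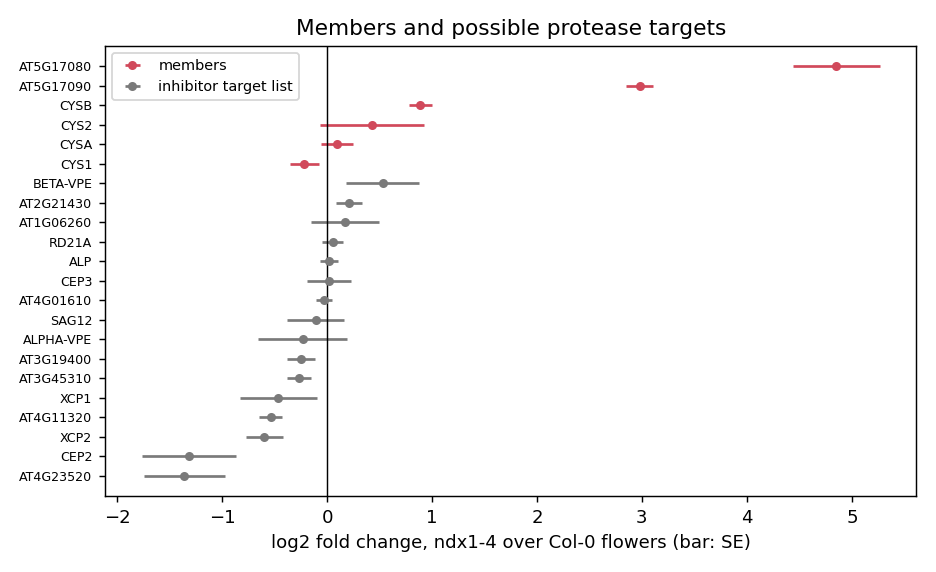
Log2 fold change of ndx1-4 over Col-0 flowers for the 6 members with values (red) and the 16 fitted genes of the protease list (grey), with bars of 1 SE. AT5G17080 at 4.85 and AT5G17090 at 2.98 were selected on this difference. They lie beyond every fitted protease, whose values run from -1.36 to 0.53.

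Genes beside the members were taken as the 5 annotated genes on each side, and 29 of them entered the fit. At an edgeR adjusted p below 0.05, 4 of the 29 were called (13.8%, against 2.81% of all genes). Their median log2 fold change was 0.30. Without overlap, 14 were higher (48.3%, against 28.8% of all genes) and 6 were lower (20.7%, against 25.7%). Of these neighbours, NF-YC11, AT5G47590 and AT2G40820 entered the fit only through the genotype table. Their differences were fixed by that selection, for NF-YC11 and AT5G47590 as higher and called genes and for AT2G40820 as a lower gene. Nothing is therefore read from these shares. The neighbours of CYSB had the highest median, 1.42, over the 4 of 10 that were in the fit. All 4 were higher in ndx1-4 without overlap, which for NF-YC11 was fixed by the selection.

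HCHIB (AT3G12500), a basic chitinase, had 74 and 111 counts in Col-0 against 278 and 276 in ndx1-4, so its log2 fold change was 1.46 ± 0.20. AT3G12460, annotated as a ribonuclease H-like gene, had 51 and 69 counts in Col-0 against 149 and 205 in ndx1-4 (1.42 ± 0.21). AT3G12470, with the same annotation, had 30 and 24 counts in Col-0 against 60 and 103 in ndx1-4 (1.41 ± 0.35). NF-YC11, a histone-fold subunit of a nuclear factor Y complex, had 570 and 699 counts in Col-0 against 1096 and 1255 in ndx1-4 (0.75 ± 0.08). HCHIB, AT3G12460 and NF-YC11 passed an adjusted p of 0.05 by edgeR, as did AT5G47590 beside AT5G47550 (log2 fold change 1.05 ± 0.12).

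CYSB and NF-YC11 lie on opposite strands and overlap by 72 bases, and 4.79% of the 31-base stretches of CYSB occur in NF-YC11 on the other strand. The counting was not stated to use strand, so reads from the stretch shared with NF-YC11 cannot be assigned to one gene. The span of CYSB also covers a long noncoding RNA, AT3G02525, over 286 bases, but no 31-base stretch of the transcripts was shared with it. CYSA likewise overlaps CYP98A3 by 70 bases, and 6.50% of its 31-base stretches occur in CYP98A3 on the other strand, so the same limit holds for CYSA. CYS2 overlaps RAD50 by 12 bases and shares no 31-base stretch with it.

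The neighbours of the other cystatins had medians closer to that of all genes, although those of CYSA and AT5G47550 also include a gene fixed by the selection. The median log2 fold change was 0.03 over 6 neighbours of CYS1, -0.04 over 6 of CYSA and -0.02 over 4 of CYS2. It was 0.06 over 2 neighbours of CYS4, 0.51 over 4 of AT5G47550 and 0.36 over 3 of AT5G05110. Among neighbours listed in the Col-0 tissue table, those with the highest level were the autophagy gene ATG8F beside CYS4 (238 ± 4.19 FPKM, log2 fold change 0.32 ± 0.07) and PME5, a pectin methylesterase gene beside AT5G47550 (175 ± 9.17 FPKM, -0.14 ± 0.08). UBC22, a ubiquitin-conjugating enzyme gene beside AT5G05110, had 89.6 ± 4.13 FPKM in Col-0 and was not listed for ndx1-4.

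**Figure D5:**
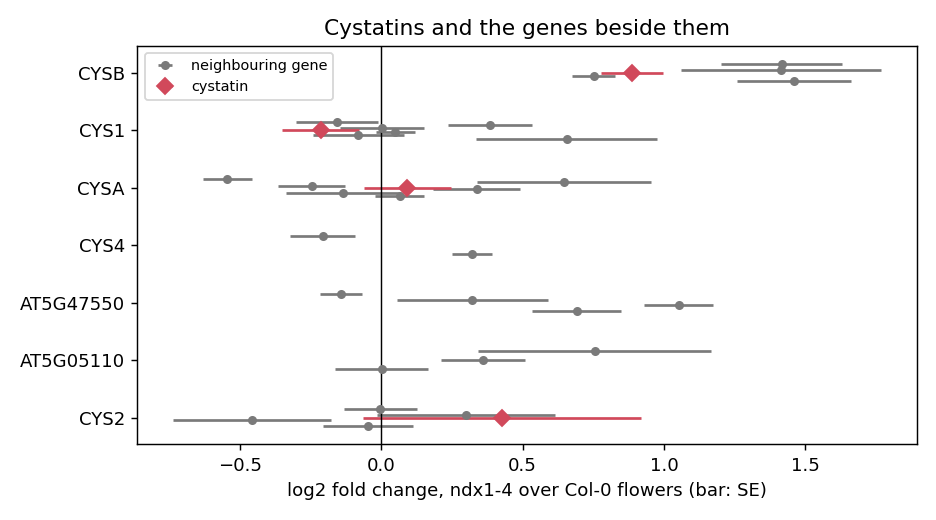
Log2 fold change of ndx1-4 over Col-0 flowers for 7 cystatins, where measured (red diamonds), and for the genes within 5 positions of each (grey points), with bars of 1 SE. All 4 neighbours of CYSB in the fit lie to the right of 0, between 0.75 and 1.46. The one at 0.75, NF-YC11, entered the fit only through the genotype table.

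The genes most like AT5G17090 over the 4 libraries were found with the same distance, leaving out the members. The closest was MAF4 (AT5G65070), a MADS-box gene of the FLC family known to delay flowering, with 39 and 47 counts in Col-0 against 341 and 470 in ndx1-4 (log2 fold change 3.08 ± 0.18, distance 0.195). AT5G42460, an F-box gene, had 49 and 65 counts in Col-0 against 393 and 526 in ndx1-4. It was followed by AT1G17232, a noncoding RNA with 16 and 20 counts in Col-0 against 116 and 164 in ndx1-4. AT3G11160, an uncharacterised gene, had 22 and 25 counts in Col-0 against 136 and 220 in ndx1-4, and AT1G67760, of the chaperonin family, had 19 and 21 in Col-0 against 155 and 143 in ndx1-4. All 5 were several-fold higher in both ndx1-4 libraries, which follows from their choice by likeness to AT5G17090 over these libraries.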

How the data were processed

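The 4 flower libraries were grouped by the genotype in the labels. Per the labels and the study's methods, total RNA was made into libraries with a TruSeq RNA kit, and the authors quantified single-end reads with Salmon against Araport11 and compared groups with DESeq2. The deposited count columns hold estimated counts from Salmon, as whole numbers. The deposited FPKM columns were scaled by the authors table by table, so levels were compared inside 1 table at a time. Each of the 3 gene tables lists only genes past an adjusted p of 0.01, so an unlisted gene was not analysed here. The fold changes and p-values in the tables are those of the authors and were not used. Another 8 columns, of samples outside the series, were not used.

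The depth factor of each library was the median quotient of counts and FPKM over genes with at least 50 counts, and was 1.20, 1.12 and 1.31 for Col-0 replicate 2 and ndx1-4 replicates 1 and 2 relative to Col-0 replicate 1. Counts of a gene shared by tables were identical (321 of 321 in Col-0 and 276 of 276 in ndx1-4), so 9143 genes with counts in all 4 libraries were joined, namely those of both tissue tables and 182 listed only by genotype. These 182 were selected on the genotype contrast. The 8163 of them averaging 10 counts or more were fitted with edgeR 4.0.16 (glmQLFit, glmQLFTest, R 4.3.3), with genotype as the only term. The SE of a log2 fold change was its size divided by the square root of the F statistic. DESeq2 1.42.0, other scalings, filters, a replicate block and leaving out each library were alternatives. The steps were tested on simulated data.

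The study's methods describe the replicates as independent pools of plants, and 2 libraries per genotype allow no exact permutation p below 0.05. Intervals cover counting error only. Coordinates are those of the tables (TAIR10), identical to RefSeq TAIR10.1, which supplied coding sequences, gene types and neighbours (Biopython 1.88). Named genes were the 9 members, NDX, the 5 genes most like AT5G17090, and, of the protease and neighbour lists, the 3 with the largest difference and the 3 with the highest FPKM in the Col-0 tissue table. Other named genes fall outside this rule. The genes most like CYS2, GRP17, A7, AT4G11320, RD19, AT4G16190, the legumains, NF-YC11, AT5G47590 and AT2G40820 were chosen after their values were seen. The rest are further markers or overlap a member by position. The members, lists and tests were chosen with earlier results of these data known.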

Additional observations from a re-analysis of the deposited data

How the results depend on the processing

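The number of genes called between ndx1-4 and Col-0 flowers depended on the processing. It was 22 of 8163 at an edgeR adjusted p below 0.01, 229 at 0.05, 7 over the genes of both tissue tables, 36 with scaling to the total, 35 without a filter on low counts and 401 with DESeq2. Of the members, 1 was called at 0.01, and 3 at 0.05 and with DESeq2. With any 1 library left out both counts were 0 (range 0 to 0), with 1 library in a genotype assumed to vary like the others. The replicate block called 501 genes (343 higher, 158 lower) and 3 members. The labels give the replicates only a number, and the replicate differences of the genotypes correlated at 0.43 over 7216 genes. The cause of the changes in count was not tested.

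The log2 fold changes of the members moved by less than the replicate spread in 47 of 47 alternatives with all libraries. These reused the same libraries, so they compare only the processing choices with that spread. Without 1 library the move was smaller than the spread in 20 of 24. That spread was computed from the same replicate gaps that set the move when a library is left out. A smaller move was therefore nearly fixed by the rule, and no conclusion is drawn from this tally. Without 1 library the log2 fold changes ranged from 4.47 to 5.49 for AT5G17080, 2.86 to 3.10 for AT5G17090, 0.79 to 0.99 for CYSB, -0.41 to -0.04 for CYS1, -0.06 to 0.26 for CYSA and -0.15 to 1.42 for CYS2. AT5G17080, with 7 counts in Col-0, is limited by depth, and it was not in the fit of both tissue tables.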
